A study of Homo sapiens with 6 samples.

Results

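The genes described here encode the voltage-gated and potassium ion channels and were chosen by name. They are the protein-coding genes whose symbol begins with KCN or CACN, the sodium channel genes (SCN followed by a number and A or B), and the 4 pacemaker channel genes (HCN). There were 140 such genes among the 60651 genes in the files, and 86 of them had enough reads to be tested. The cells were SK-N-AS, an established human neuroblastoma line without MYCN amplification. All 6 cultures carried a MYCN gene that tetracycline switches on through the tetracycline repressor (TR) system, and were grown as single clones under selection with G418 and blasticidin. The 3 control libraries are labelled ETOH and the 3 MYCN-induced libraries are labelled Tet, all taken at 120 h, which the treatment protocol gives as 5 days. The labels do not say how many clones were used. Tetracycline and MYCN were present together in every induced culture, so their effects cannot be told apart, and cells given tetracycline but lacking that gene were not analysed here.

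Ion channels are membrane proteins that open a pore for a chosen ion. A pore (alpha) subunit is usually accompanied by auxiliary subunits that set how much of it reaches the membrane and when it opens. Potassium channels hold the resting membrane potential and end the action potential, sodium channels start it, and calcium channels turn depolarization into calcium entry and secretion. Neuroblastoma arises from the sympathetic and adrenal lineage of the neural crest, whose mature cells are excitable and use all of these channel families.

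Gene levels are given as CPM, which is counted read pairs in each library scaled to a common total after TMM normalization (a scaling that lets libraries of unlike composition be compared), and they compare libraries within a gene. Levels of different genes are compared only as TPM, which also divides by exon length. Total counts ran from 64500589 to 102249336 pairs per library. A gene entered the test if 3 or more libraries held at least 10 counts, which left 29086 genes, tested with edgeR's quasi-likelihood test, and a gene past an adjusted p of 0.05 is described as having risen or fallen. MYCN itself (ENSG00000134323.12, chromosome 2 of GRCh38, 15940550 to 15947007, plus strand) stood at 30.3, 35.5 and 32.4 CPM in the controls and at 211, 221 and 199 CPM in the induced libraries (log2 fold change 2.68, edgeR adjusted p = 4.15e-05). MYCN-induced replicate 3 stood apart from the other libraries, with a first principal component score of 69.1, where induced replicates 1 and 2 scored 14.4 and 13.1 and the controls −40.3 to −25.9. Adrenergic neuroblastoma markers were present, with all 12 tested and a summed level of 623 to 746 TPM in the controls and 544 to 695 TPM in the induced libraries, and 3 of them fell, CHGA and CHGB among them. The 10 mesenchymal neuroblastoma markers summed to 146 to 167 TPM in the controls and 191 to 203 TPM in the induced libraries. Of these 10 markers 8 were tested, and among them 0 rose and 1, FN1, fell. For comparison with both marker counts, 2.38% of all genes tested fell and 1.02% rose. Most of the mesenchymal sum was VIM, at 109 to 124 TPM in the controls and 130 to 149 TPM in the induced libraries. VIM was not called (edgeR adjusted p = 0.0595). CD44, a defining mesenchymal marker, was at 0 in every library. The 11 markers of Schwann, endothelial, epithelial and blood cells summed to at most 5.12 TPM within any type. The part of these marker shifts in the channel results was not tested. In bulk RNA, fewer cells of a type and less RNA per cell cannot be told apart.

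After MYCN induction 12 of the 86 channel genes fell and 2 rose. Among the potassium channel genes that fell were KCNMA1, KCNB2, KCNS2, KCNJ6, KCNJ11, KCNMB1 and KCNIP1, and KCNH8 and KCNK1 rose. Among sodium channel genes SCN2A, SCN8A and SCN11A fell, and among calcium channel genes CACNA2D2 fell. The fallen genes made up 14.0% of the channel genes tested, against 2.38% of all genes tested and 2.88% of protein-coding genes tested. The risen genes made up 2.33%, against 1.02% of all genes and 1.55% of protein-coding genes. In either direction the share was 16.3%, against 3.40% of all genes and 4.43% of protein-coding genes. The induced level of the 12 fallen genes was between 0.158 and 0.718 of the control level.

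**Figure D1:**
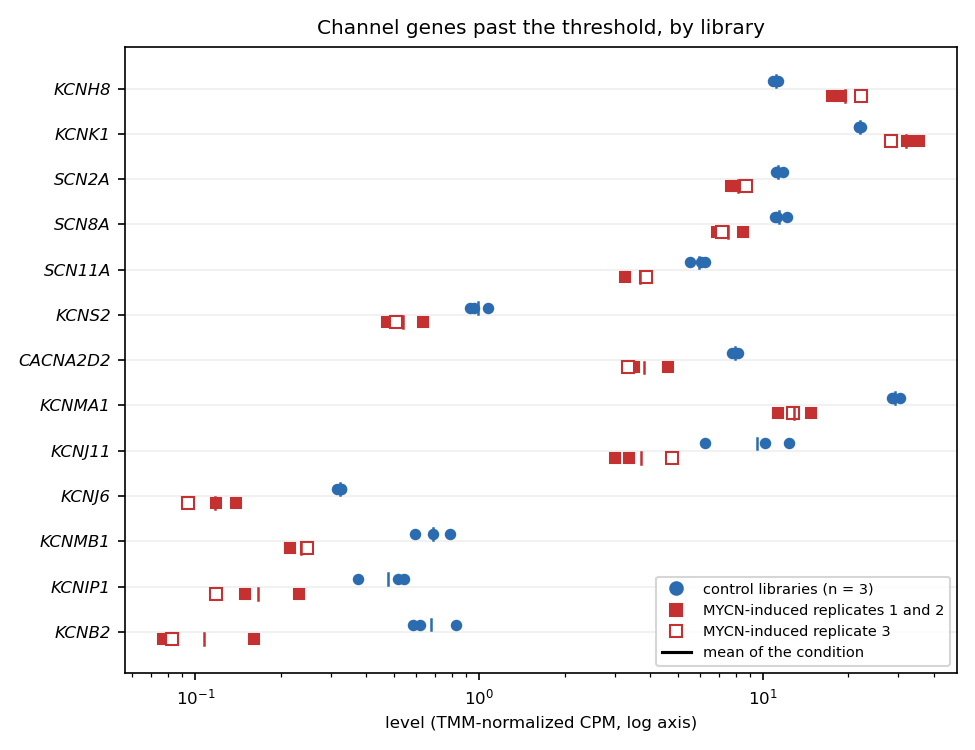
Level of 13 of the channel genes past the threshold in each library, in CPM on a log axis, with 1 row for each gene. Circles are the 3 control libraries, squares the 3 MYCN-induced libraries (open for replicate 3), and lines the mean of each condition. In all 13 rows the circles and squares do not overlap, and KCNB2 shows the widest separation.

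The log2 fold change was below 0 in 56 channel genes and above 0 in 30, with a median of −0.21, against −0.00 over all genes tested and 0.03 over protein-coding genes. Values below 0 made up 65.1%, against 50.1% of all genes and 44.8% of protein-coding genes. The median was −0.109 without MYCN-induced replicate 3, and −0.039 over the 47 channel genes with at least 100 counts in every library. The control and induced values did not overlap in 38 of the 86 genes (44.2%, against 26.3% of all genes and 30.5% of protein-coding genes), and 29 of these were lower and 9 higher after induction. For lower values the share was 33.7%, against 14.7% of all genes and 14.5% of protein-coding genes. For higher values it was 10.5%, against 11.5% and 16.0%. At an unadjusted p below 0.05 there were 24 lower genes (27.9%, against 10.6% of all genes and of protein-coding genes) and 7 higher genes (8.14%, against 8.13% and 11.4%). The median of the log2 ratios to the control mean was −0.09, −0.18 and −0.34 in induced replicates 1, 2 and 3, so the lowest of these medians belonged to the library that stood apart.

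The individual calls differed in how firmly they stood. Without MYCN-induced replicate 3 the 14 genes remained past the threshold and 3 more joined them (KCNN3, CACNA2D3 and KCNK12), where 3.68% of all genes rose and 4.44% fell. Leaving out any other library left fewer calls, and these were 5, 1 and 3 without control replicates 1, 2 and 3, and 5 and 6 without induced replicates 1 and 2. Shares of all genes called were not computed for those fits. A drop common to all genes therefore cannot be told apart from one of the channel genes. KCNMA1 was called in all 6 fits without 1 library and KCNB2 in 5. KCNH8 and CACNA2D2 were called in 4, and KCNMB1 in 3. KCNJ11 was called in 2. KCNJ6, SCN11A, KCNK1, SCN8A, KCNIP1, SCN2A and KCNS2 were called in 1 only, the fit without induced replicate 3. No direction changed for any of the 14 in these fits.

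**Figure D2:**
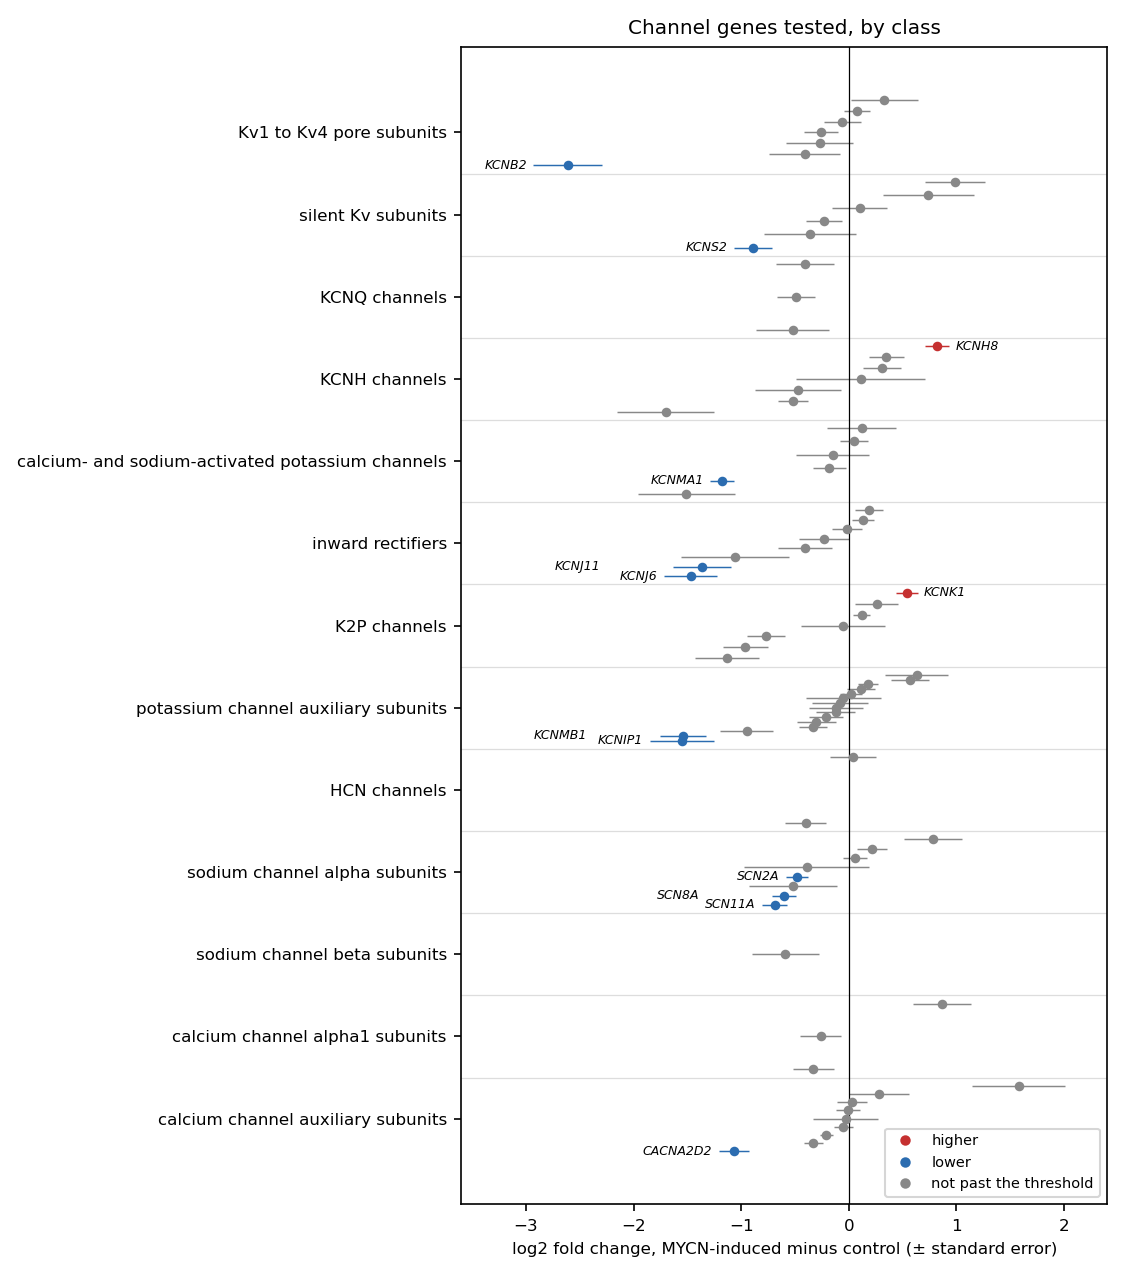
Log2 fold change of 82 tested channel genes (MYCN-induced minus control), grouped by class, with bars of 1 standard error. Blue points fell, red points rose and grey points did not pass the threshold. The calls below 0 are spread over 7 classes, and all 3 KCNQ genes drawn lie below 0 without a call.

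KCNMA1 and KCNMB1, which encode parts of the BK channel, both fell. KCNMA1 (ENSG00000156113.24, chromosome 10, 76869601 to 77638369, minus strand) encodes the pore of BK, a large-conductance potassium channel opened by calcium and depolarization together. Its level was 30.4, 28.4 and 28.7 CPM in the controls and 14.7, 11.3 and 12.8 CPM in the induced libraries. The induced values were all under the lowest control value, with a mean of 29.2 ± 1.06 against 12.9 ± 1.68 CPM (SD, n = 3 each). The log2 fold change, always induced minus control, was −1.18 (standard error, SE, 0.11, edgeR adjusted p = 0.00373). KCNMA1 made up 37.1, 36.1 and 33.4% of the summed TPM of the 8 calcium- and sodium-activated channels in the controls and 23.7, 21.8 and 17.8% in the induced libraries.

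KCNMB1 (ENSG00000145936.9, chromosome 5, 170374671 to 170389634, minus strand) encodes the beta1 subunit, which raises the calcium sensitivity of BK and is best known from smooth muscle. It was scarce, at 0.688, 0.790 and 0.592 CPM in the controls and 0.247, 0.215 and 0.248 CPM in the induced libraries, from 60 to 72 and 16 to 21 counts. The log2 fold change was −1.54 (SE 0.21, edgeR adjusted p = 0.0114). This gene lies inside the span of KCNIP1 on the opposite strand and shares no exon with it in the annotation. If the counting ignored strand, as the file header reads, intronic reads of KCNIP1 could not be told apart from its own. The BK beta subunit with the highest level per length was KCNMB3, at 2.0 TPM, though 37.9% of its exon bases overlap another gene on the opposite strand and 9.62% a pseudogene on the same strand. It averaged 10.8 ± 0.710 CPM over the 3 controls and 11.0 ± 0.606 CPM after induction (mean ± SD), a log2 fold change of 0.02 (SE 0.10, edgeR adjusted p = 0.940). KCNMB2 and KCNMB4 had log2 fold changes of −0.95 and −0.21 and were not called.

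The small-conductance calcium-activated channels did not pass the test with all libraries. KCNN3, one of these, had a log2 fold change of −0.15 (edgeR adjusted p = 0.864). Without induced replicate 3 it was −0.72 (edgeR adjusted p = 0.0206). KCNN1 and KCNN2 had log2 fold changes of −0.18 and 0.05.

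KCNB2 (ENSG00000182674.6, chromosome 8, plus strand) encodes Kv2.2, a delayed rectifier of nerve cell bodies, and fell. It stood at 0.583, 0.620 and 0.828 CPM in the controls and 0.0770, 0.161 and 0.0826 CPM in the induced libraries. The log2 fold change of −2.61 (SE 0.32, edgeR adjusted p = 0.00796) was the lowest among the channel genes and rested on 61, 55 and 84 counts against 5, 15 and 7. The values of the conditions did not overlap. AMIGO1, an adhesion protein that accompanies Kv2 channels, had a log2 fold change of −0.66 (SE 0.22, edgeR adjusted p = 0.170) and was not called.

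Silent Kv subunits form no channel alone and alter Kv2 when they join it. KCNS2 (Kv9.2, ENSG00000156486.8, chromosome 8, plus strand) fell from 0.926, 0.959 and 1.07 CPM to 0.632, 0.472 and 0.507 CPM, with log2 fold change −0.89 (SE 0.18, edgeR adjusted p = 0.0407). KCNG1 (Kv6.1), which made up 70.0% of the TPM of this class, lay the other way. It stood at 5.52, 7.42 and 7.76 CPM in the controls and 10.1, 10.6 and 20.4 CPM in the induced libraries. The values did not overlap, but the log2 fold change of 0.99 (SE 0.28) had an edgeR adjusted p of 0.108, and the estimate was 0.59 without induced replicate 3. The summed TPM of the silent subunits was 3.19, 3.63 and 3.64 in the controls and 4.31, 5.17 and 6.20 in the induced libraries, so it was higher in every induced library.

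The other families of this kind were low or not called. None of the 8 KCNA genes (Kv1, the axonal low-threshold channels) could be tested, and 5 of them had 0 counts in every library. A count of 0 allows up to 3 counts, which is 0.0465 CPM in the smallest library. None of the 3 tested KCNC genes (Kv3, channels of fast firing) and none of the 3 KCND genes (Kv4, the A-type channels) was called. KCND1, the Kv gene with the highest level in its class at 1.68 TPM, had a log2 fold change of 0.08.

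The channel that links metabolism to excitability was represented by its pore and its regulatory subunit. KCNJ11 (Kir6.2, ENSG00000187486.6, chromosome 11, 17385248 to 17389331, minus strand) encodes the pore of the ATP-sensitive potassium channel, which closes when ATP rises. It stood at 6.24, 10.2 and 12.3 CPM in the controls and 3.0, 3.38 and 4.76 CPM in the induced libraries. The controls were spread widely, but the lowest of them was above the highest induced library, and the log2 fold change was −1.36 (SE 0.27, edgeR adjusted p = 0.0399). ABCC8 (SUR1, ENSG00000006071.15, chromosome 11, 17392498 to 17476879, minus strand), the sulfonylurea receptor that surrounds that pore, is the neighbouring gene. It fell from 8.96, 10.3 and 9.62 CPM to 3.5, 2.61 and 4.13 CPM, with log2 fold change −1.50 (SE 0.17, edgeR adjusted p = 0.00664). The paralogous pore gene KCNJ8 (Kir6.1) averaged 2.86 ± 0.212 CPM over the 3 controls and 3.27 ± 0.361 CPM after induction (mean ± SD), a log2 fold change of 0.19 (edgeR adjusted p = 0.491), and its usual partner ABCC9 had at most 14 counts and was not tested.

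KCNJ6 (GIRK2, ENSG00000157542.11, chromosome 21, 37607373 to 38121345, minus strand) encodes a channel opened by G protein beta-gamma subunits. It fell from 0.325, 0.316 and 0.325 CPM to 0.139, 0.118 and 0.0944 CPM, with log2 fold change −1.47 (SE 0.25, edgeR adjusted p = 0.0263). These levels rested on 28 to 34 counts in the controls and 8 to 11 in the induced libraries. Of the other GIRK genes, KCNJ3 and KCNJ5 had at most 1 and 5 counts and were not tested, and KCNJ9 had a log2 fold change of −0.23. The most abundant inward rectifier per length, KCNJ14, had a log2 fold change of 0.13. Of its exon bases, 23.5% overlap a noncoding gene on the opposite strand. On the same strand 6.67% overlap GRWD1, which averaged 52.9 CPM over the controls, and 2.83% overlap ENSG00000268465. The summed TPM of the 16 inward rectifiers was 10.5, 11.1 and 11.8 in the controls and 9.17, 9.91 and 7.99 in the induced libraries.

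KCNH8 and KCNK1 were the 2 genes that rose. KCNH8 (ENSG00000183960.9, chromosome 3, 19148510 to 19535642, plus strand) encodes an ELK channel of the ether-a-go-go family. It stood at 11.3, 11.1 and 10.8 CPM in the controls and 17.5, 18.8 and 22.2 CPM in the induced libraries, with log2 fold change 0.82 (SE 0.11, edgeR adjusted p = 0.0104). An unnamed noncoding gene on the opposite strand (ENSG00000287069) covers 2.6% of the exon bases of KCNH8. That gene also rose (log2 fold change 0.84, edgeR adjusted p = 0.0145). KCNK1 (TWIK1, ENSG00000135750.15, chromosome 1, 233614106 to 233672514, plus strand) encodes a K2P background channel and was the potassium channel gene with the highest level per length, at 12.6 TPM. It stood at 22.2, 21.7 and 21.8 CPM in the controls and 32.2, 35.5 and 28.2 CPM in the induced libraries, with log2 fold change 0.54 (SE 0.10, edgeR adjusted p = 0.0291). In both genes every induced library was above every control.

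Related genes were not called. KCNH2 (hERG, a channel often expressed in neuroblastoma cells) stood at 19.2, 29.9 and 32.3 CPM in the controls and 33.3, 33.8 and 34.0 CPM in the induced libraries. The induced values were the higher ones, but the controls were spread over a wider range and the log2 fold change was 0.31 (SE 0.18, edgeR adjusted p = 0.394). KCNH1 (EAG1) had a log2 fold change of −0.52 (edgeR adjusted p = 0.0954). Of its exon bases, 36.9% overlap a gene on the opposite strand that was not called (log2 fold change −0.22). On the same strand 16.1% overlap ENSG00000284299, which fell (log2 fold change −0.77, edgeR adjusted p = 0.0462). KCNK2 (TREK1), nearly as abundant as KCNK1 at 12.1 TPM, had a log2 fold change of 0.12 (SE 0.08, edgeR adjusted p = 0.465). KCNK12 (THIK2) stood at 6.39, 6.02 and 5.34 CPM in the controls and 3.73, 4.12 and 2.55 CPM in the induced libraries, with log2 fold change −0.77 (edgeR adjusted p = 0.0685), and 9.61% of its exon bases overlap a neighbouring gene.

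**Figure D3:**
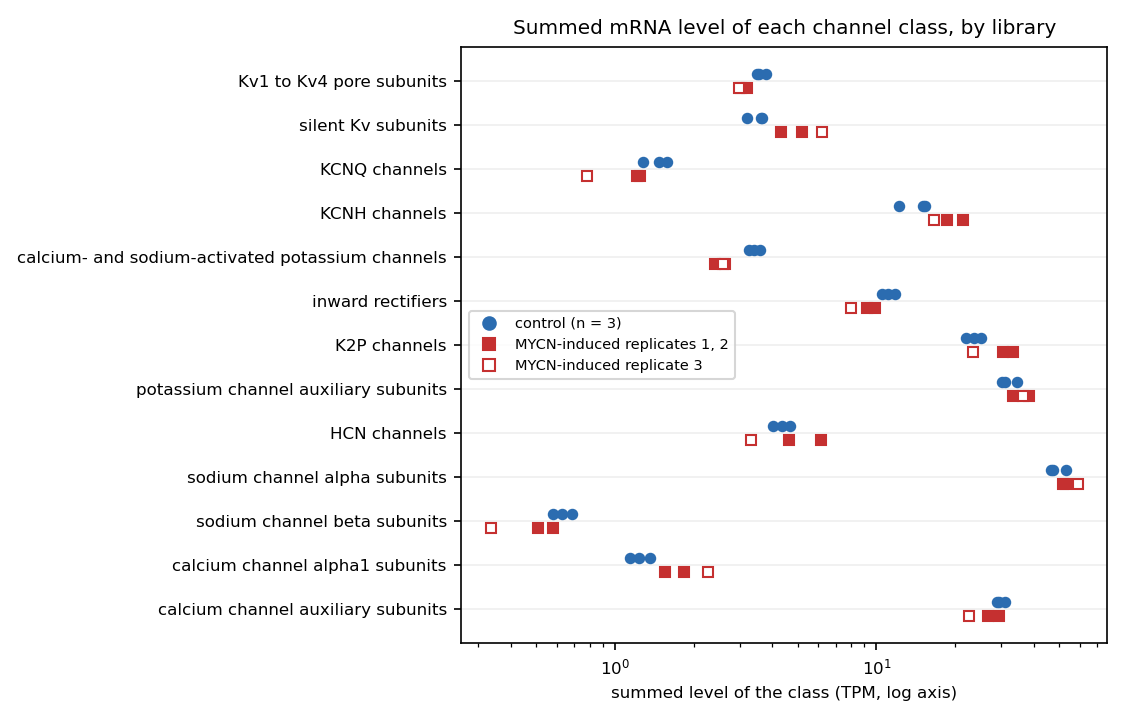
Summed level of each channel class in each library, in TPM on a log axis, with circles for the 3 controls, filled squares for MYCN-induced replicates 1 and 2 and open squares for replicate 3. The calcium- and sodium-activated potassium channels, the inward rectifiers, the Kv1 to Kv4 pore subunits and the KCNQ channels lie lower in every induced library, and the silent Kv subunits, the KCNH channels and the calcium channel alpha1 subunits higher.

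The KCNQ genes, several of which carry the M-current that damps repetitive firing, shared a direction without a call. The 4 tested genes had log2 fold changes from −0.52 to −0.41 and KCNQ3 was not tested. KCNQ1, best known from the heart, stood at 0.965, 0.891 and 0.789 CPM in the controls and 0.709, 0.547 and 0.637 CPM in the induced libraries, without overlap (log2 fold change −0.49, edgeR adjusted p = 0.188). Among the HCN genes, which carry the pacemaker current, HCN2 had a log2 fold change of 0.04 (SE 0.21) and HCN3 one of −0.40 (SE 0.19), and neither was called.

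Of the 17 auxiliary subunits of potassium channels, 15 were tested and 2 fell, KCNMB1 and KCNIP1, where 2.38% of all genes tested fell. KCNIP1 (ENSG00000182132.14, chromosome 5, 170353487 to 170736632, plus strand) encodes a calcium-binding subunit of Kv4 channels. It fell from 0.544, 0.519 and 0.375 CPM to 0.231, 0.15 and 0.118 CPM, with log2 fold change −1.55 (SE 0.30, edgeR adjusted p = 0.0372), and rested on 38 to 57 and 10 to 15 counts. The family member KCNIP4 averaged 18.7 ± 1.05 CPM over the 3 controls and 21.2 ± 1.53 CPM after induction (mean ± SD). Its log2 fold change was 0.18 (edgeR adjusted p = 0.337). PACRGL, on the opposite strand, overlaps 37.4% of its exon bases and averaged 114 CPM in the controls and 143 CPM after induction. If the counting ignored strand, as the file header reads, reads of PACRGL could not be told apart from those of KCNIP4 there. KCNE4, which suppresses several Kv channels, was at 19.5, 21.2 and 22.3 CPM in the controls and 22.8, 24.2 and 50.7 CPM in the induced libraries, and its log2 fold change was 0.63 with all libraries and 0.17 without induced replicate 3. KCNAB1, a beta subunit of Kv1, and KCNRG, a regulator of Kv assembly, had log2 fold changes of 0.11 and −0.30, and KCNRG shares 66.8% of its exon bases with TRIM13.

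SCN2A, SCN8A and SCN11A fell, 3 of the 8 tested sodium channel pore genes, where 2.38% of all genes tested fell. Each of these 3 calls held in only 1 of the 6 fits without 1 library. SCN9A, the most abundant, was not called. SCN2A (Nav1.2, ENSG00000136531.18, chromosome 2, 165194993 to 165392310, plus strand) encodes a channel of central axons. It stood at 11.8, 11.2 and 11.1 CPM in the controls and 7.98, 7.74 and 8.74 CPM in the induced libraries, with log2 fold change −0.48 (SE 0.10, edgeR adjusted p = 0.0407). SCN8A (Nav1.6, ENSG00000196876.18, chromosome 12, 51590266 to 51812864, plus strand) encodes the channel of mature axon initial segments. It stood at 12.1, 11.2 and 11.0 CPM in the controls and 8.51, 6.89 and 7.17 CPM in the induced libraries, with log2 fold change −0.60 (SE 0.11, edgeR adjusted p = 0.0347). SCN11A (Nav1.9, ENSG00000168356.13, chromosome 3, 38845764 to 39052157, minus strand) encodes a persistent channel of sensory neurons. It stood at 6.25, 6.06 and 5.54 CPM in the controls and 3.91, 3.26 and 3.87 CPM in the induced libraries, with log2 fold change −0.69 (SE 0.12, edgeR adjusted p = 0.0263). In each of these genes the conditions did not overlap.

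SCN9A (Nav1.7), the channel of sympathetic and pain-sensing neurons, was the channel gene with the highest level per length, at 45.6 TPM. It stood at 373, 349 and 361 CPM in the controls and 380, 357 and 525 CPM in the induced libraries, and the ranges overlap (log2 fold change 0.22, SE 0.14, edgeR adjusted p = 0.457). The noncoding SCN1A-AS1 on the opposite strand covers 11.4% of its exon bases. SCN9A made up 86.4 to 87.5% of the summed TPM of the sodium channel pore genes in the controls and 88.6 to 90.9% in the induced libraries. The share of SCN2A, SCN8A and SCN11A together was 5.68, 5.67 and 5.30% in the controls and 3.82, 3.49 and 2.69% in the induced libraries. The summed TPM of the class was 52.9, 47.2 and 46.7 in the controls and 51.6, 53.0 and 58.8 in the induced libraries, so the ranges overlap. SCN1A was at 5.04, 4.17 and 3.73 CPM in the controls and 4.10, 5.16 and 0.610 CPM in the induced libraries, and its log2 fold change of −0.39 became 0.12 without induced replicate 3. The beta subunit SCN3B had a log2 fold change of −0.59 (edgeR adjusted p = 0.362).

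The calcium channel genes gave 1 call among 12 tested, a fall, where 2.38% of all genes tested fell. CACNA2D2 (ENSG00000007402.12, chromosome 3, 50362613 to 50504244, minus strand) encodes an alpha2delta subunit, a gabapentinoid-binding protein that brings calcium channels to the surface. It stood at 7.75, 8.02 and 8.13 CPM in the controls and 4.62, 3.50 and 3.33 CPM in the induced libraries, with log2 fold change −1.07 (SE 0.14, edgeR adjusted p = 0.0110). An unnamed noncoding gene on the opposite strand (ENSG00000271858) covers 9.31% of its exon bases and had a log2 fold change of −0.95. The other members of the family lay on both sides. CACNA2D1, the most abundant at 12.5 TPM, stood at 75.4, 72.1 and 72.9 CPM in the controls and 61.1, 66.1 and 63.2 CPM in the induced libraries. These did not overlap, but the log2 fold change of −0.21 (SE 0.06) had an edgeR adjusted p of 0.128. CACNA2D3 had a log2 fold change of 1.58 (SE 0.43, edgeR adjusted p = 0.0973), carried by 3.75 CPM in induced replicate 3 beside 1.29 and 1.31 CPM in the other 2, against 0.632 to 0.831 CPM in the controls. Without that library the log2 fold change was 0.88 (edgeR adjusted p = 0.0253).

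Pore genes of calcium channels were few. Of 10 alpha1 genes 7 could not be tested, and the other 3 were CACNA1A, CACNA1D and CACNA1G. CACNA1G, the T-type channel gene that made up 77.3% of the TPM of the class, stood at 4.14, 6.23 and 5.70 CPM in the controls and 6.97, 8.34 and 14.0 CPM in the induced libraries. Its log2 fold change was 0.87 (SE 0.27, edgeR adjusted p = 0.136) and 0.53 without induced replicate 3. The beta subunit CACNB3 stood at 24.7, 26.6 and 26.1 CPM in the controls and 21.5, 21.8 and 18.4 CPM in the induced libraries (log2 fold change −0.33, edgeR adjusted p = 0.108).

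**Figure D4:**
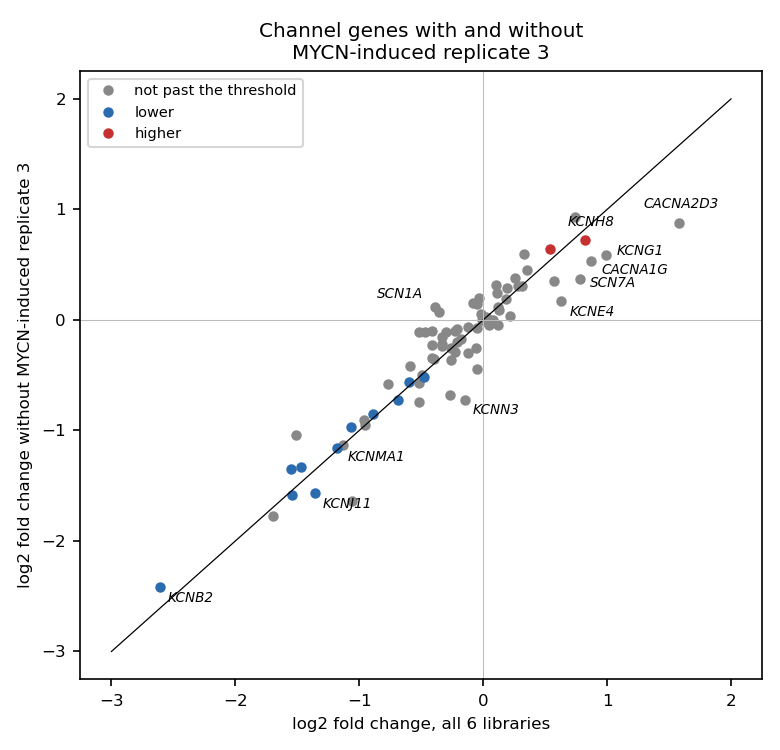
Log2 fold change of 81 channel genes with all 6 libraries (horizontal) and without MYCN-induced replicate 3 (vertical), with the line of equal values. The called genes drawn (blue lower, red higher) lie near the line, while CACNA2D3, KCNE4 and CACNA1G lie below it and SCN1A above it.

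The replicate that stood apart also stood apart in some channel genes. In induced replicate 3, 8 tested genes were more than 1.5 times above both other induced libraries (KCNK4, CACNA1G, CACNA2D3, KCNN3, KCNJ2, KCNE4, KCNG1 and SCN7A). A further 10 were below both by more than 1.5 times (KCNH6, KCND2, KCND3, CACNG1, KCNU1, KCNE1, KCNG3, KCNS1, SCN1A and SCN3A). None of these 18 genes is among the 14 called ones. A spread of that size within the induced libraries itself makes a call less likely, so this absence is not a result about the called genes. The share of all genes with such a spread was not counted.

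Of the 140 genes, 54 were not tested. The highest count of any of them in a library was 30, in HCN4, and 14 had 0 counts in every library. Among the 86 tested genes 35 had a mean under 1 CPM, and of the 51 at or above it 2 rose and 7 fell. The share of all genes called at that level was not computed, so these counts are not set against a background. The 10 genes with the highest TPM (SCN9A, KCNK1, CACNA2D1, KCNK2, KCNE4, KCNH2, KCNIP4, CACNB3, KCNRG and KCNAB1) made up 64.1 to 66.3% of the summed channel TPM in the controls and 67.6 to 69.5% in the induced libraries, and only KCNK1 among them was called. The summed TPM of all 140 genes was 184, 176 and 173 in the controls and 188, 206 and 184 in the induced libraries.

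Proteins that bind or regulate these channels gave 3 calls among 20 tested of 33 listed. The 3 were 15.0% of those tested, against 3.40% of all genes. GEM (ENSG00000164949.8), a small RGK-family GTPase that inhibits voltage-gated calcium channels through their beta subunits, rose from 4.13, 4.35 and 3.81 CPM to 10.6, 12.3 and 17.0 CPM, with log2 fold change 1.70 (SE 0.18, edgeR adjusted p = 0.00515). It was called in all 6 fits without 1 library. ABCC8 fell, as described with KCNJ11. REST (ENSG00000084093.19), a repressor of many neuronal genes including channels, stood at 150, 149 and 143 CPM in the controls and 175, 186 and 178 CPM in the induced libraries (log2 fold change 0.29, SE 0.06, edgeR adjusted p = 0.0464), and was called in 1 of those fits. The sodium channel anchors ANK3 and FGF13 had log2 fold changes of 0.04 and 0.06.

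Other ion channel families, taken from a list of chloride, TRP, purinergic, acid-sensing and related genes, gave 5 falls and 0 rises by edgeR among 67 tested of 81 listed (7.46% lower, against 2.38% of all genes). At an unadjusted p below 0.05 edgeR gave 14 lower and 4 higher genes (20.9 and 5.97%, against 10.6 and 8.13% of all genes), and DESeq2 called 8 lower and 2 higher. The fallen genes were CLCN5, an endosomal chloride-proton exchanger (log2 fold change −0.61), P2RX3, an ATP-gated channel of sensory neurons (−2.20), TRPM3, a heat- and steroid-activated channel (−1.42), and the acid-sensing channels ASIC1 (−0.62) and ASIC4 (−0.95). TRPM3 stood at 18.8, 17.0 and 17.0 CPM in the controls and 7.67, 7.33 and 4.73 CPM in the induced libraries (edgeR adjusted p = 0.00899).

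The starts of the fallen genes differed among themselves in base composition. The 250 bases before the start of KCNH8 and KCNK1, which rose, and of CACNA2D2 and KCNIP1, which fell, are printed from RefSeq (GRCh38.p14) because these windows end where the gene models of both annotations begin. Each runs 5′ to 3′ on the gene's own strand, and capitals mark CG dinucleotides, the sites of promoter methylation.
KCNH8, chr3:19148260-19148509, plus strand: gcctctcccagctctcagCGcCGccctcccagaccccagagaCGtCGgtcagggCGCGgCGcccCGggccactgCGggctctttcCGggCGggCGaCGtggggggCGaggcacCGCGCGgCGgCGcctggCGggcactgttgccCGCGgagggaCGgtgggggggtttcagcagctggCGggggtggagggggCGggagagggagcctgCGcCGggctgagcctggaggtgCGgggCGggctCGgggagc
KCNK1, chr1:233613856-233614105, plus strand: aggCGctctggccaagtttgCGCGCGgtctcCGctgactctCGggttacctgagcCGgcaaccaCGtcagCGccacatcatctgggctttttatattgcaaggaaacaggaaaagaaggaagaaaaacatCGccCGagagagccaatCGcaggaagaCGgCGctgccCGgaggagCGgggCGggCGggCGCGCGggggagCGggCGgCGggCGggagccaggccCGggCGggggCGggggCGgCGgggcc
CACNA2D2, chr3:50504245-50504494, minus strand: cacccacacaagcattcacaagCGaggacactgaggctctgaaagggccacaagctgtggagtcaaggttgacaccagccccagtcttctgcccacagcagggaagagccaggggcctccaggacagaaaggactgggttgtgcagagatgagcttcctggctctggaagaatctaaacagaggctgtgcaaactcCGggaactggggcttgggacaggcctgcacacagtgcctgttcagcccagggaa
KCNIP1, chr5:170353237-170353486, plus strand: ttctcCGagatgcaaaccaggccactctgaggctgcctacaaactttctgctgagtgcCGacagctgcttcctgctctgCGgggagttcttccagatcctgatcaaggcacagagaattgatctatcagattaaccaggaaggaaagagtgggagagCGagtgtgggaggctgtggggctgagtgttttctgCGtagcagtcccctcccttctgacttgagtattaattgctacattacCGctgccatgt
KCNH8 had 79.2% G and C with 30 CG dinucleotides, KCNK1 69.2% with 30, CACNA2D2 58.0% with 2 and KCNIP1 52.0% with 6. The median over 35116 windows of all genes was 58.0% with 11, and over 16966 windows of tested protein-coding genes it was 63.6% with 19. CACNA2D2 and KCNIP1 each had a second RefSeq window, with 34 and 20 CG dinucleotides. Other fallen genes also had windows rich in CG, with 46 in KCNMA1 (85.6% G and C), 45 in SCN8A (85.6%) and 25 in KCNJ6 (70.0%). Windows poor in CG were found too, with 1 in another window of KCNMA1 (53.6%) and 5 in KCNMB1 (54.0%). Both SCN2A windows held 1 (29.2 and 32.0%), and SCN11A had 2 in 1 window and 21 in the other.

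The letters CACGTG, the E-box that MYC proteins prefer, were searched in windows from 250 bases before to 50 after the start, and read the same on both strands. They were in 0 of the 15 windows of the 10 called genes with an entry, in 6.54% of the 153 channel gene windows, in 8.86% of the windows of tested protein-coding genes and in 7.26% of all windows. CATGTG or its reverse CACATG was in 1 of the 15 (SCN11A), in 7.84% of the channel gene windows, in 7.83% of the windows of tested protein-coding genes and in 11.1% of all windows. KCNB2, KCNJ11 and KCNS2 were among those without an entry in the table used. The channel genes with CACGTG were KCNAB1, KCNAB2, KCND2, KCNE1, KCNH4 and KCNK4, which were tested and not called, and CACNA1B, CACNA1I and KCNN4, which were not tested. A match or its absence describes these letters in this window only.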

How the data were processed

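Ribosomal RNA-depleted total RNA of 3 control and 3 MYCN-induced cultures was sequenced as read pairs. The authors deposited, per the file headers, estimated counts: read pairs on exons per gene, counted with featureCounts v1.6.4 on unique STAR alignments (STAR 2.7.1a in the submitters' processing notes), with pairs that overlap several genes shared in fractions and no strand option set. The methods name featureCounts 1.5.1 with a strand option, and genes overlapping on opposite strands are uncertain for that reason. Unique alignment drops pairs that near-identical genes share. Between 31.9 and 33.4% of values above 0 were not whole. The annotation release is not given in the header. Names came from GENCODE release 44 on GRCh38, which matched 99.65% of the 60651 identifiers. The 92 spike-in rows held 0 counts.

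Rounded counts of 29086 genes, each with 10 or more in 3 or more libraries, entered the test in edgeR 4.0.16 and R 4.3.3 (TMM normalization, quasi-likelihood test, Benjamini-Hochberg adjustment over all genes tested, threshold 0.05). The biological coefficient of variation was 0.153. The standard error is the size of the log2 fold change divided by the square root of F. TPM were computed from the counts and the deposited exon lengths. Total counts were 102249336, 87847999 and 101299285 in control replicates 1 to 3 and 64500589, 90540398 and 91041116 in induced replicates 1 to 3. A gene near 10 counts carries large counting error. On simulated counts of 28601 genes for this comparison, 200 genes with a mean above 1 CPM were changed 2-fold. Of these edgeR called 160 (80.0%), and it called 14 unchanged genes. Changed genes under 1 CPM were not simulated, and no simulated library was made to stand apart. The 80.0% therefore does not cover the 35 channel genes tested under 1 CPM.

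Groups came from the sample titles. The study describes in vitro replicates as independent biological ones. The replicate numbers did not pair the libraries, and the alternatives were other scalings, count filters, thresholds, DESeq2 1.42.0, a replicate block, protein-coding genes only and leaving out each library. The channel genes, the lists of partners, other channels and cell markers, and the rule for named genes were chosen with earlier results of these data known. The genes named are MYCN, REST, each channel, partner or other channel gene past the threshold, the 10 channel genes with the highest TPM, the highest in each class, and the 5 with the smallest p among genes not past the threshold at 1 CPM or more without overlap. Other genes are named as relatives of these or for a count, after their values were seen. Some genes that this rule selects are not reported here one by one and are left out of the plots of single genes, though they stay in counts, medians and class sums. CircRNA counts were not analysed here.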

Additional observations from a re-analysis of the deposited data

How the results depend on the processing

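The calls were 2 channel genes higher and 12 lower, 3 partner genes and 5 other ion channel genes. For higher calls the count was 1 with library size only, 5 with DESeq2 and 4 with no count filter. For lower calls it was 5 with at least 100 counts in every library, where 47 channel genes were tested and 7 were called in all. At a threshold of 0.01 there were 0 higher and 2 lower channel calls and 3 other ion channel calls. At 0.1 there were 5 partner and 8 other ion channel calls. DESeq2 gave 6 partner and 10 other ion channel calls. DESeq2 called 19 channel genes, the 14 among them, and 3.11% of all genes rose and 4.12% fell there, and its added calls were CACNA1G, KCNG1, KCNH1, CACNA2D3 and KCNK12. Leaving out 1 library gave 0 to 3 higher and 1 to 14 lower channel calls, 1 to 5 partner calls and 0 to 13 other ion channel calls. Shares of all genes are given only for the main fit, DESeq2, the replicate block and the fit without MYCN-induced replicate 3. Elsewhere a changed count may be common to all genes. The median log2 fold change of the channel genes was −0.209, ran from −0.24 to −0.109 elsewhere and was −0.039 with at least 100 counts in every library. Over 13 of the called genes 127 of 190 alternative values stayed past the threshold, 63 did not and 0 changed direction. In the fits without 1 library KCNAB1 ran from −0.01 to 0.24, negative without MYCN-induced replicate 2, and KCND1 ran from −0.00 to 0.17, negative without replicate 3. Same-numbered libraries correlated at 0.22, −0.02 and 0.07 in their deviations, and the numbers were not taken to pair them. Correlations over 3 pairs cannot exclude pairing. With the replicate block there were 3 higher and 10 lower channel calls, 11 of them among the 14 (0.911 and 1.98% of all genes). KCNJ6, SCN2A and KCNS2 were no longer called (edgeR adjusted p = 0.0588, 0.075 and 0.0689), KCNG1 and KCNK12 were added, and MYCN was at 2.69 on the log2 scale. The cause of these shifts was not tested. Depth limits the 54 untested channel genes and those near 10 counts.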

Other observations

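Noncoding genes named after channel genes were looked at after their values were seen. There were 38, of which 14 were tested, 11 had a log2 fold change below 0, 2 fell and 0 rose by edgeR's adjusted p. The 11 were 78.6%, against 50.1% of all genes tested, and the 2 were 14.3%, against 2.38%. At an unadjusted p below 0.05 there were 5 lower (35.7%, against 10.6%) and 0 higher (against 8.13%), and DESeq2 called 2 lower and 0 higher. Both that fell lie opposite KCNMA1. KCNMA1-AS1 stood at 1.87, 1.78 and 1.62 CPM in the controls and 1.0, 0.687 and 0.849 CPM in the induced libraries (log2 fold change −1.06, edgeR adjusted p = 0.0209). KCNMA1-AS3 stood at 2.12, 1.65 and 1.30 CPM in the controls and 0.925, 0.730 and 0.873 CPM in the induced libraries (log2 fold change −1.01, edgeR adjusted p = 0.0463). Both are antisense to KCNMA1, and if the counting ignored strand, as the file header reads, they cannot be separated from its intronic reads. KCNMA1-AS1 also overlaps 1.06% of the exon bases of KCNMA1, so for it the same holds for exonic reads. KCNQ1OT1, the imprinted antisense RNA of the KCNQ1 locus, had a log2 fold change of −0.27 (edgeR adjusted p = 0.210).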
